A study of Homo sapiens with 6 samples.

Results

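The genes described here are the brakes on mTORC1 and the small GTPase they act on, 10 genes in all: DDIT4 and its relative DDIT4L, the sestrins SESN1, SESN2 and SESN3, the TSC subunits TSC1 and TSC2, the mTORC1-binding inhibitors DEPTOR and AKT1S1, and RHEB. They were chosen by name, and their Ensembl transcripts annotated in GENCODE 29 were summed per gene. Of these 10 genes 9, with 146 transcripts, had values, beside 26425 genes summed likewise in the whole table. RNA was sequenced from SUM1315, an established line of a triple-negative breast cancer with the genotype label WT, after 24 h at 1% oxygen in an incubator chamber (hypoxia, 3 libraries) or at 21% oxygen (normoxia, 3 libraries). Both groups grew in medium with serum, insulin and epidermal growth factor, so a growth factor supply was present in all 6 libraries. The study's stated subject was the making of ribosomes in cells short of oxygen.

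mTORC1 is a protein kinase complex that drives protein synthesis and ribosome production when growth factors, amino acids and energy are at hand. RHEB bound to GTP switches it on at the lysosome, and the TSC complex switches RHEB off by stimulating its GTP hydrolysis. DDIT4, also called REDD1, is known to act through the TSC complex and is a known target of the oxygen-sensing factor HIF1A. Sestrins hold back mTORC1 through the amino acid branch, where SESN1 and SESN2 are leucine sensors, and AKT1S1 (PRAS40) and DEPTOR bind the mTOR complex itself.

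DDIT4 messenger RNA was 8.32 times as high in hypoxia as in normoxia, while the other 5 members that could be tested were at 0.844 (AKT1S1) to 1.21 times (SESN2) their normoxic level. Of the 6 tested members 1 was raised (DDIT4), 1 was lowered (AKT1S1) and 4 passed the threshold in neither direction (SESN2, TSC1, TSC2 and RHEB). Over all 11889 tested genes 12.4% were raised and 24.4% lowered at the same threshold, an adjusted p under 0.05 (limma, Benjamini-Hochberg adjustment). SESN1, SESN3 and DEPTOR lay below the filter of more than 1 RPKM in at least 3 libraries, and no transcript of DDIT4L was matched, so that DDIT4L was not analysed here.

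Values are RPKM (reads divided by the transcript's length and the library's depth) summed over a gene's transcripts, and ± is the SD over 3 libraries. Log2 fold changes set hypoxia over normoxia after adding 1 to each RPKM, so changes of weakly expressed genes come out too small. Depth recovered from the table was 44.0 to 50.6 M reads in the hypoxic and 50.3 to 50.8 M in the normoxic libraries. The labels do not say whether the libraries of a group came from separate cultures, so a p-value here rests on library-to-library spread that can be purely technical. In bulk RNA, fewer cells that express a gene and less RNA of it per cell cannot be told apart. Of 10 hypoxia-response genes used to check the label, 8 were tested and all 8 were raised, among them BNIP3 at 162 ± 8.54 in hypoxia and 28.7 ± 1.66 RPKM in normoxia. ANKRD37, also among them, was at 0.889, 1.27 and 0.918 RPKM in normoxia. It passed the filter only through the hypoxic group, so its call is not independent of the filter. CA9 and EGLN3 lay below the filter, at 0.0360 and 0.328 RPKM in hypoxia. Of the markers checked, vimentin (VIM), a mesenchymal filament protein, averaged 6742 RPKM in hypoxia and 4840 RPKM in normoxia, while the epithelial markers KRT5, KRT14, KRT8, KRT18, EPCAM and CDH1 stayed at 0.110 RPKM or below in every library and ERBB2 averaged 22.1 RPKM in hypoxia and 21.6 RPKM in normoxia. Of 9 markers of other cell types 3 were expressed (COL1A1, ACTA2 and CD68), and their summed level was 482 to 537 RPKM in hypoxia against 322 to 360 RPKM in normoxia, with PTPRC, PECAM1, VWF and PDGFRB at or near 0; the part of this shift in the results below was not tested.

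Windows around the transcription start are shown for the raised DDIT4 and for RHEB and SESN2, which were not called. The 300 bases from 250 before to 50 after the start are given for each of the 3 genes (RefSeq, GRCh38.p14). Capitals mark ACGTG or GCGTG on either strand, the core letters of the element that HIF is known to bind; CACGT is ACGTG read on the other strand.
DDIT4 (chr10:72273674-72273973, plus strand): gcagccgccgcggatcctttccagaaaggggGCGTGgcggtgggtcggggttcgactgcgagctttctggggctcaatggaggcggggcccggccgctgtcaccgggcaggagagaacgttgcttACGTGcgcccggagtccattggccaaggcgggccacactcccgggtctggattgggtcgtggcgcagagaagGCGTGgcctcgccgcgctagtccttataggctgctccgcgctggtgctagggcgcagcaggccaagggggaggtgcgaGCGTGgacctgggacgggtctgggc
RHEB (chr7:151519846-151520145, minus strand): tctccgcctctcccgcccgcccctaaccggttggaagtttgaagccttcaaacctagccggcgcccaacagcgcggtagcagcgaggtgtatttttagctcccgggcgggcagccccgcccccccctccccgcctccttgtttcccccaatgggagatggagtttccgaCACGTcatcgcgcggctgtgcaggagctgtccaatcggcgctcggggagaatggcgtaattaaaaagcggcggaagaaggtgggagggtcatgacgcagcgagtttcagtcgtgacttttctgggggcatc
SESN2 (chr1:28259268-28259567, plus strand): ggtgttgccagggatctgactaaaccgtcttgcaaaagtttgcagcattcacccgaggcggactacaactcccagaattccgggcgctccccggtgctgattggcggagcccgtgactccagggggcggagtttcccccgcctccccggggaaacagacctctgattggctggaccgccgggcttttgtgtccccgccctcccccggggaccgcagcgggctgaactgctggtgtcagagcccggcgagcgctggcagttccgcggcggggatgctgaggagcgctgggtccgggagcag

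The DDIT4 window held 4 such cores, 1 ACGTG and 3 GCGTG, all on the plus strand. Relative to the start, the ACGTG began at position -125 and the GCGTG cores at positions -219, -53 and 26. The RHEB window held 1 and the SESN2 window 0. Among 35116 promoter windows of the same length 48.5% held at least 1 of these cores and 4.4% held 4 or more. The search covered the windows of 8 members (11 windows in all), without AKT1S1 and DEPTOR. Among them TSC2 had a palindromic CACGTG, which contains ACGTG on both strands and occurs in 7.26% of all windows. A GCGTG was found in 1 of 3 SESN1 windows. The letters TGATGNAA, a core bound by ATF4 with its partners, occurred in 1 TSC2 window, where they overlap the CACGTG, and in 3.62% of all windows. Such matches describe letters and show no binding.

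DDIT4 (ENSG00000168209, chromosome 10, 72273920 to 72276036, GRCh38) stood at 246, 281 and 261 RPKM in the hypoxic libraries, against 28.4, 36.6 and 29.8 RPKM in the normoxic libraries. The lowest hypoxic library was far above the highest normoxic one, and the spread within each group was small beside the gap. The log2 fold change was 3.02 (SE 0.09, 95% interval 2.83 to 3.22, limma adjusted p = 2.09e-09), higher in 3 of 3 hypoxic libraries. It ranked 6 of 11889 tested genes by log2 fold change. On the same scale, with 1 added to each RPKM, 0.908% of the tested genes were raised at least 2-fold. By level, DDIT4 ranked 241 to 258 among the tested genes in the hypoxic libraries and 2325 to 2974 in the normoxic ones. It took 509 ± 22.2 ppm of the summed RPKM in hypoxia and 64.2 ± 8.91 ppm in normoxia. An estimated 63620 reads over the 3 hypoxic and 8073 over the 3 normoxic libraries stand behind it.

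The increase of DDIT4 was carried by its coding transcript. DDIT4-201, with 3 exons and 1748 bases, held 94.0% of the gene sum in hypoxia and 93.9% in normoxia, at 247 ± 18.7 in hypoxia and 29.7 ± 4.13 RPKM in normoxia. The retained-intron transcript DDIT4-202 was at 7.49, 6.77 and 8.11 RPKM in hypoxia and at 0.863, 0.962 and 0.410 RPKM in normoxia. DDIT4-203, likewise with a retained intron, was at 8.37 ± 1.83 in hypoxia and 1.17 ± 0.443 RPKM in normoxia. Neither short transcript overlapped between the groups, and both were higher in hypoxia. By gene sum, hypoxia was higher without overlap in 16.4% of all tested genes.

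DDIT4-AS1, an antisense RNA, lies wholly within DDIT4, and its 847 exonic bases cover 48.5% of DDIT4-201. The libraries did not mark strand, so reads over the shared bases cannot be assigned to either gene with certainty. DDIT4-AS1 was at 241, 278 and 347 RPKM in hypoxia, against 29.9, 31.1 and 31.1 RPKM in normoxia, and its ratio to DDIT4 was 1.10 ± 0.201 in hypoxia and 0.982 ± 0.114 in normoxia (two-sided exact permutation p = 0.6). DDIT4-202 ends at 72274635, before the first base of DDIT4-AS1 at 72274915, so its increase lies outside the shared stretch. Adding the DDIT4-AS1 values to DDIT4 gave a log2 fold change of 3.12.

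**Figure D1:**
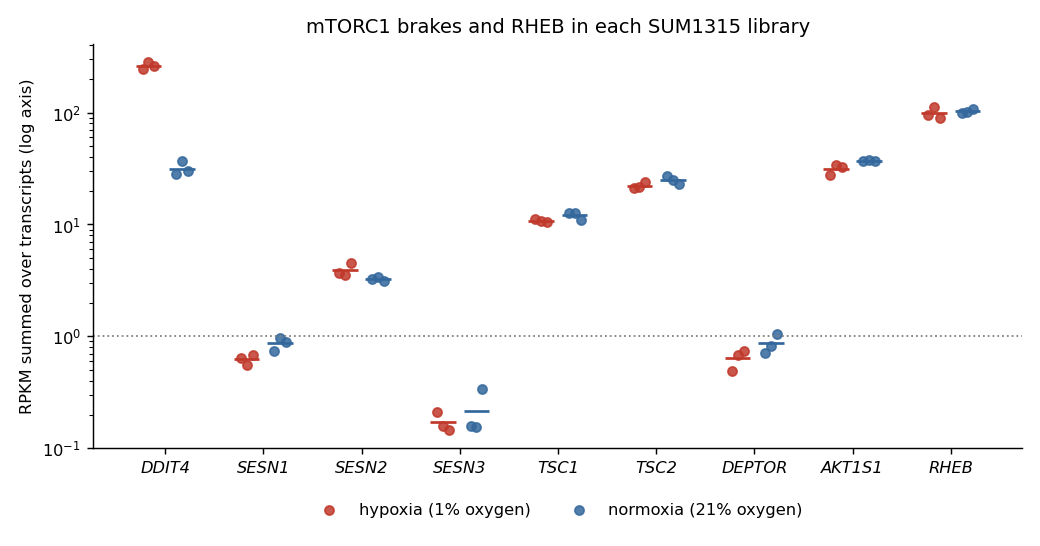
RPKM summed over transcripts (log axis) of the 9 genes with values, with 1 point per library and a bar at the mean of 3 libraries; hypoxia is red and stands left of normoxia in blue, and the dotted line marks 1 RPKM. DDIT4 at 246 to 281 RPKM in hypoxia is separate from 28.4 to 36.6 RPKM in normoxia, whereas the points of RHEB, TSC1 and TSC2 overlap between groups.

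The order of the levels changed with DDIT4. In hypoxia DDIT4 came first, followed by RHEB, AKT1S1, TSC2, TSC1, SESN2, then DEPTOR and SESN1, and SESN3 last. In normoxia RHEB came first, followed by AKT1S1, DDIT4, TSC2, TSC1, SESN2, then SESN1 and DEPTOR, and SESN3 last. Neighbours in these orders were separate in their 3 libraries except SESN1 and DEPTOR, whose ranges overlapped in both groups, and the lowest normoxic AKT1S1 value (36.8 RPKM) was barely above the highest DDIT4 value (36.6 RPKM). DDIT4 was 2.67 ± 0.213 times the level of RHEB in hypoxia and 0.309 ± 0.0462 times in normoxia, per length. The ratio of DDIT4 to TSC2 was 11.8 ± 1.08 in hypoxia and 1.27 ± 0.216 in normoxia, and both ratios were higher in all 3 hypoxic libraries (two-sided exact permutation p = 0.1 each, the smallest that 3 against 3 libraries allow).

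Sestrin messenger RNA was low, and SESN2 made up most of it. SESN2 (ENSG00000130766, chromosome 1, 28259527 to 28282491), a stress-induced leucine sensor with 1 annotated transcript, was at 3.71, 3.54 and 4.49 RPKM in hypoxia, against 3.24, 3.37 and 3.11 RPKM in normoxia. The groups did not overlap, with hypoxia higher, as for 16.4% of all tested genes, but the margin was narrow and hypoxia replicate 3 stood above the other hypoxic libraries. The log2 fold change of 0.21 (SE 0.09, 95% interval 0.00095 to 0.41) did not pass the threshold (limma adjusted p = 0.102). With median-of-ratios scaling it was 0.27 and passed (adjusted p = 0.0476).

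SESN1 (chromosome 6, 108986437 to 109094819), a leucine sensor like SESN2, was at 0.634, 0.550 and 0.681 RPKM in hypoxia, against 0.741, 0.965 and 0.891 RPKM in normoxia. All hypoxic libraries lay below all normoxic ones, with a difference of -0.24 RPKM (two-sided exact permutation p = 0.1, the smallest possible here). About 254 estimated reads in hypoxia and 408 in normoxia, over 3 libraries each, stand behind these values. Its transcripts begin at different starts. The long SESN1-204 was at 0.265 ± 0.0139 in hypoxia and 0.444 ± 0.0771 RPKM in normoxia, and SESN1-202, from an internal start, was at 0.267 ± 0.103 in hypoxia and 0.324 ± 0.0303 RPKM in normoxia. SESN1-204 was lower in all 3 hypoxic libraries, and SESN1-202 overlapped between the groups.

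SESN3 (chromosome 11, 95165513 to 95232541), a sestrin induced by FOXO factors, was at 0.210, 0.158 and 0.145 RPKM in hypoxia, against 0.158, 0.154 and 0.338 RPKM in normoxia. The groups overlapped (two-sided exact permutation p = 0.7), and normoxia replicate 3 was the highest library. About 183 estimated reads in hypoxia and 229 in normoxia, over 3 libraries each, stand behind SESN3. Its normoxic libraries spread from 0.154 to 0.338 RPKM, and a change within that spread could not be seen. SESN2 took 83.1% ± 1.5 of the summed sestrin level in hypoxia and 75.0% ± 3.33 in normoxia, higher in all 3 hypoxic libraries (two-sided exact permutation p = 0.1). The sum itself was 4.71 ± 0.548 in hypoxia and 4.32 ± 0.173 RPKM in normoxia and overlapped between groups.

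Of 8 regulators known to induce DDIT4 or sestrins 2 were raised, 1 was lowered and 5 were not called, beside 12.4% raised and 24.4% lowered among all tested genes. HIF1A messenger RNA was lower, at 21.3 ± 1.47 RPKM in hypoxia and 26.2 ± 0.197 RPKM in normoxia (log2 fold change -0.29, limma adjusted p = 0.00756). EPAS1, which encodes HIF2A, was at 14.9 ± 0.226 in hypoxia and 12.9 ± 0.497 RPKM in normoxia (adjusted p = 0.0412), a call lost with libraries rescaled to equal sums and without any 1 of 5 libraries (all but hypoxia replicate 2). DDIT3, the stress factor CHOP, was at 17 ± 1.18 in hypoxia and 13.1 ± 1.15 RPKM in normoxia (adjusted p = 0.00742, and 0.0569 without the filter on low values) and shares 27.2% of its exonic bases with MARS1 on the other strand. ATF4 was at 4.39 ± 0.305 in hypoxia and 4.15 ± 0.692 RPKM in normoxia (log2 fold change 0.08, adjusted p = 0.603).

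Targets of ATF4 went both ways. Of 14 tested ATF4 targets 3 were raised and 5 lowered, with a median log2 fold change of -0.15 beside -0.08 for all tested genes, of which 12.4% were raised and 24.4% lowered. The lowered numbered 8 without hypoxia replicate 3, and 3 without normoxia replicate 2 or 3 and under median-of-ratios or upper-quartile scaling. STC2 was raised at 147 ± 5.24 in hypoxia against 59.4 ± 1.56 RPKM in normoxia and TRIB3, a pseudokinase, at 10.0 ± 0.585 in hypoxia against 7.71 ± 0.393 RPKM in normoxia, whereas the cystine transporter SLC7A11 was lowered at 1.29 ± 0.183 in hypoxia against 2.41 ± 0.205 RPKM in normoxia. The factor ATF5 was lowered at 26.9 ± 2.05 in hypoxia against 34.1 ± 1.49 RPKM in normoxia and shares 21.2% of its exonic bases with NUP62 on the other strand.

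Neither large TSC subunit passed the threshold. TSC1 (ENSG00000165699, chromosome 9, 132891348 to 132946874), the stabilising subunit hamartin, was at 11.1, 10.7 and 10.5 RPKM in hypoxia, against 12.7, 12.8 and 11.0 RPKM in normoxia. TSC2 (ENSG00000103197, chromosome 16, 2047465 to 2089487), the subunit tuberin that acts on RHEB, was at 21.2, 21.6 and 24.0 RPKM in hypoxia, against 27.2, 24.8 and 22.8 RPKM in normoxia. Each overlapped between the groups in 1 library, with the other hypoxic libraries below the normoxic ones. The log2 fold changes were -0.16 (95% interval -0.32 to 0.01, limma adjusted p = 0.125) for TSC1 and -0.16 (95% interval -0.33 to 0.01, adjusted p = 0.133) for TSC2.

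The ratio of TSC1 to TSC2 was 0.486 ± 0.0437 in hypoxia and 0.487 ± 0.0241 in normoxia (two-sided exact permutation p = 1). The third subunit, TBC1D7, was at 4.05 ± 0.510 in hypoxia and 4.60 ± 0.182 RPKM in normoxia (log2 fold change -0.15, adjusted p = 0.206). Both large genes are split over many transcripts, 46 for TSC1 and 67 for TSC2, and the main TSC1 transcript, TSC1-233, held 22.1% of its sum in hypoxia and 21.3% in normoxia. The main TSC2 transcript, TSC2-204, with 36.6% of the sum in hypoxia and 40.9% in normoxia, was at 9.08, 7.0 and 8.40 RPKM in hypoxia, against 10.1, 10.8 and 9.79 RPKM in normoxia. Taken in place of the gene sum it passed the threshold (log2 fold change -0.30, adjusted p = 0.0287), as did TSC1 with limma-voom on estimated reads (-0.22, adjusted p = 0.0279) and both genes with libraries rescaled to equal sums (-0.22 each). TSC2 shares 3.96% of its exonic bases with PKD1 and 2.05% with NTHL1, both on the other strand.

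RHEB (ENSG00000106615, chromosome 7, 151466012 to 151520120), the GTPase that the TSC complex switches off, was at 96.0, 111 and 89.5 RPKM in hypoxia, against 98.3, 101 and 108 RPKM in normoxia. The hypoxic libraries included both the highest and the lowest value. The log2 fold change was -0.06 (95% interval -0.23 to 0.12, limma adjusted p = 0.596), and the sign turned under median-of-ratios scaling (0.029) and under upper-quartile scaling (0.022) and without hypoxia replicate 3 (0.012). RHEB-201 held 95.5% of the sum in hypoxia and 94.1% in normoxia. The processed pseudogenes RHEBP1 and RHEBP2, which can share reads with it, were at 0.0700 and 1.28 RPKM in hypoxia and at 0.127 and 0.885 RPKM in normoxia.

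AKT1S1 (ENSG00000204673, chromosome 19, 49869033 to 49878459), the mTORC1-bound inhibitor PRAS40, was at 27.4, 33.8 and 32.7 RPKM in hypoxia, against 36.8, 37.8 and 36.8 RPKM in normoxia. All hypoxic libraries were below all normoxic ones, with hypoxia replicate 1 the lowest; hypoxia was likewise lower without overlap in 35.5% of all tested genes. The log2 fold change was -0.24 (SE 0.08, 95% interval -0.41 to -0.07, limma adjusted p = 0.0303). The call was lost with median-of-ratios (log2 fold change -0.16) and upper-quartile scaling (-0.17), without hypoxia replicate 1 (-0.15, adjusted p = 0.0510) and without normoxia replicate 1, 2 or 3 (adjusted p = 0.0761, 0.0981 and 0.0805). It was also lost without the filter on low values (adjusted p = 0.144) and with the highest transcript alone (adjusted p = 0.172). AKT1S1-201 was its main transcript at 13.9 ± 3.05 in hypoxia and 16.4 ± 1.57 RPKM in normoxia, and AKT1S1-207 followed at 9.34 ± 0.526 in hypoxia and 10.1 ± 0.332 RPKM in normoxia. AKT1S1 shares 6.83% of its exonic bases with TBC1D17 on the other strand.

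DEPTOR, which binds mTOR in both of its complexes, was at 0.495, 0.680 and 0.743 RPKM in hypoxia, against 0.709, 0.826 and 1.05 RPKM in normoxia. The ranges overlapped in 1 library, with a difference of -0.22 RPKM (two-sided exact permutation p = 0.2). The smallest p possible here is 0.1, so the test cannot decide whether DEPTOR changed. About 221 estimated reads in hypoxia and 307 in normoxia, over 3 libraries each, stand behind these values. DEPTOR-201 held 89.6% of the sum in hypoxia and 80.9% in normoxia.

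**Figure D2:**
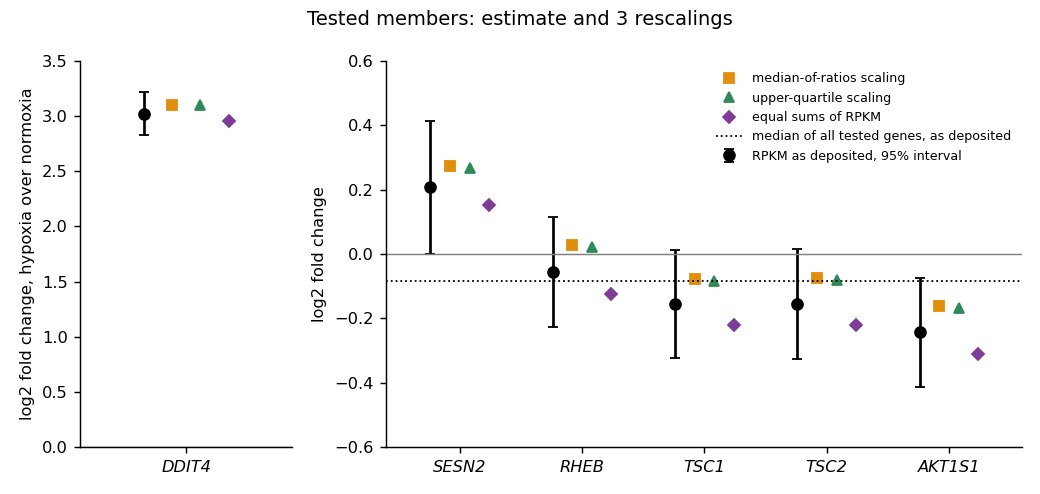
Log2 fold change of the 6 tested members, hypoxia over normoxia; black points are the estimates on RPKM as deposited with 95% intervals, coloured marks the estimates after 3 rescalings of the libraries, and the dotted line the median of all tested genes (-0.08). DDIT4, on its own axis, stays between 2.95 and 3.11 under the 3 rescalings, whereas RHEB runs from -0.12 to 0.029.

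As a whole the tested members had a median log2 fold change of -0.11, beside -0.08 for all tested genes. Groups did not overlap for 3 of 6 members (DDIT4, SESN2 and AKT1S1), beside 51.9% of all tested genes. The share of lowered genes among all calls depended on scaling, at 66.2% with RPKM as deposited, 41.2% with median-of-ratios scaling, 42.9% with upper-quartile scaling and 78.2% with libraries rescaled to equal sums.

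The rest of the mTORC1 pathway was described from 7 lists without the members. Of 73 tested genes 13 were raised (17.8%) and 17 lowered (23.3%), beside 12.4% and 24.4% of all tested genes, and the median log2 fold change was -0.09. In the core of the mTOR complexes 3 of 9 were raised and 4 lowered. The counts were 4 raised and 3 lowered under median-of-ratios or upper-quartile scaling. With libraries rescaled to equal sums or with limma-voom they were 3 raised and 5 lowered. Without the filter, or without normoxia replicate 2 or 3, they were 2 raised and 3 lowered. The kinase MTOR was at 18.8, 15.1 and 17.8 RPKM in hypoxia, against 25.0, 24.8 and 24.0 RPKM in normoxia, a log2 fold change of -0.50 (SE 0.08, limma adjusted p = 0.00120). All 3 hypoxic libraries were below all 3 normoxic ones, and the call held under each of 15 alternatives, at -0.56 to -0.41. The complex assembly factor TELO2 was also lowered, at 29.8 ± 2.56 in hypoxia against 37.6 ± 1.32 RPKM in normoxia.

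RPTOR, the subunit that brings substrates to mTORC1, was at 16.8, 16.4 and 17.8 RPKM in hypoxia, against 14.3, 14.0 and 13.2 RPKM in normoxia (log2 fold change 0.28, adjusted p = 0.00930). That call was lost without normoxia replicate 3 and turned to -0.17 with protein-coding transcripts alone. PRR5 and PRR5L, partners of mTORC2, were raised, PRR5L at 1.82 ± 0.151 in hypoxia against 0.813 ± 0.114 RPKM in normoxia and PRR5 at 5.69 ± 0.509 in hypoxia against 4.37 ± 0.271 RPKM in normoxia; the PRR5 call was lost without normoxia replicate 2 and without the filter on low values (adjusted p = 0.0641). PRR5L was below 1 RPKM in all 3 normoxic libraries and passed the filter only through the hypoxic group, so its call is not independent of the filter.

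Among genes that mTORC1 acts on or through, 8 of 17 were raised and 5 lowered, beside 12.4% and 24.4% of all tested genes. The raised numbered 4 without normoxia replicate 1 or 3, 5 without hypoxia replicate 2 or normoxia replicate 2, 5 with libraries rescaled to equal sums and 3 without the filter; the lowered numbered 3 without hypoxia replicate 1 or any 1 normoxic library, 3 under median-of-ratios or upper-quartile scaling and 2 without the filter. The translation repressor EIF4EBP1 was raised at 139 ± 17 in hypoxia against 101 ± 2.82 RPKM in normoxia (log2 fold change 0.44, adjusted p = 0.00253), and the autophagy kinase ULK1 at 62.1 ± 4.44 in hypoxia against 46.2 ± 3.62 RPKM in normoxia. The S6 kinase gene RPS6KB1 was lowered at 11.4 ± 0.684 in hypoxia against 15.5 ± 0.949 RPKM in normoxia, and LARP1, which binds messenger RNAs of ribosomal proteins, at 47.2 ± 6.46 in hypoxia against 62.3 ± 1.55 RPKM in normoxia. These 4 calls held under the 3 rescalings and without any 1 library, while those of EIF4EBP1 and LARP1 were lost without the filter on low values (adjusted p = 0.0538 and 0.0789).

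The inputs to mTORC1 were mostly not called, and neither were most of all tested genes. Of all tested genes 36.8% were called, 12.4% raised and 24.4% lowered. In the Rag and Ragulator list 2 of 12 were raised and 1 lowered, with RRAGD at 3.35 ± 0.304 in hypoxia against 2.32 ± 0.388 RPKM in normoxia, LAMTOR5 at 150 ± 4.40 in hypoxia against 130 ± 3.75 RPKM in normoxia and RRAGC at 19.3 ± 2.43 in hypoxia against 24.3 ± 0.789 RPKM in normoxia. Of 14 genes of GATOR, KICSTOR and the amino acid sensors 0 were raised and 3 lowered, with SEH1L at 59.9 ± 1.33 in hypoxia against 78.7 ± 1.33 RPKM in normoxia and DEPDC5 at 3.75 ± 0.572 in hypoxia against 5.36 ± 0.858 RPKM in normoxia. Of 10 PI3K and AKT genes 2 were lowered (PIK3CB and IRS1), and of 9 AMPK genes 2 were lowered (CAB39 and PRKAA1). These last 4 calls and that of RRAGC were lost under either of the median-of-ratios and upper-quartile scalings and without some single libraries. Without the filter on low values the calls of PIK3CB, CAB39, PRKAA1, RRAGC, RRAGD and DEPDC5 were lost too (adjusted p = 0.155, 0.157, 0.146, 0.107, 0.0976 and 0.140), and with protein-coding transcripts alone those of PIK3CB and PRKAA1. The call of DEPDC5 was lost under upper-quartile scaling and without hypoxia replicate 2 or normoxia replicate 2, that of RRAGD without normoxia replicate 1, and that of LAMTOR5 without normoxia replicate 1 or 2.

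**Figure D3:**
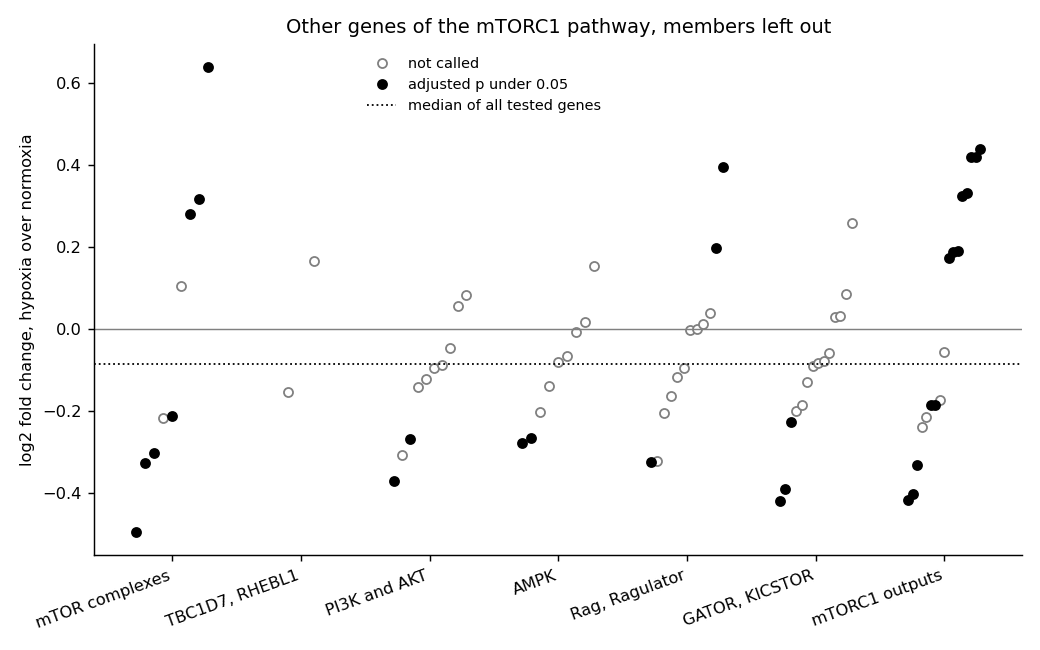
Log2 fold change, hypoxia over normoxia, of the 73 tested genes of 7 mTORC1 pathway lists without the members; filled points have an adjusted p under 0.05, open points do not, and the dotted line is the median of all tested genes. The values lie between -0.50 (MTOR) and 0.64 (PRR5L), all far below the 3.02 of DDIT4.

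The genes with the nearest profile to DDIT4 were sought by the Euclidean distance of log2(RPKM + 1), centred per gene, over the 6 libraries. The 5 nearest were ANGPTL4, a lipoprotein lipase inhibitor (distance 0.397), SLC2A1, the glucose transporter GLUT1 (0.484), the metallothionein MT3 (0.518), PFKFB4, an enzyme of glycolytic control (0.540), and MIR210HG, host of miR-210 (0.555). ANGPTL4 was at 79.3, 93.3 and 102 RPKM in hypoxia, against 11.9, 11.1 and 10.2 RPKM in normoxia, with a log2 fold change of 2.93. MT3 was at 9.53, 7.34 and 10.3 RPKM in hypoxia, against 0.0484, 0.145 and 0.116 RPKM in normoxia. MIR210HG and MT3 are low in normoxia, and the 1 added to each RPKM reduces their log2 fold changes to 3.15 and 3.18. The distance thus depends in part on level. Both genes were below 1 RPKM in all 3 normoxic libraries and passed the filter only through the hypoxic group. Their place among the 5 nearest is therefore not independent of the filter.

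**Figure D4:**
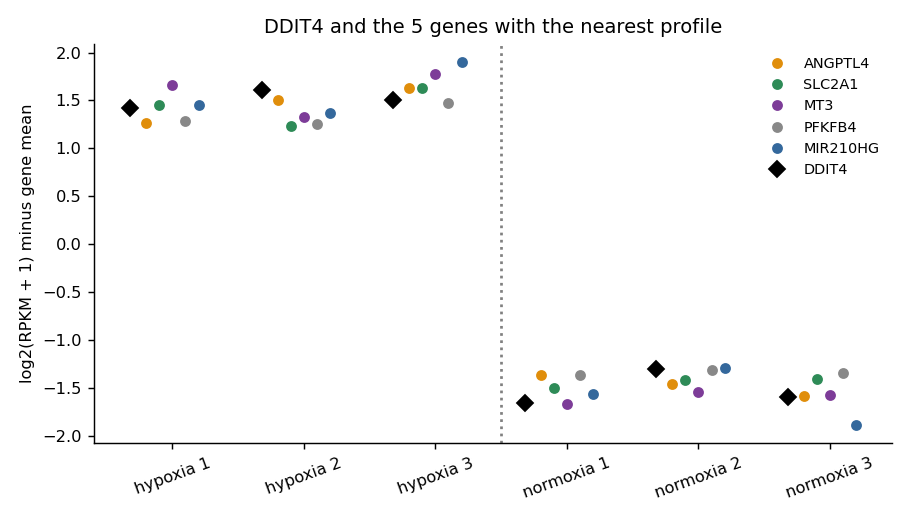
Log2(RPKM + 1) minus the gene's mean over 6 libraries for DDIT4 (black diamonds) and the 5 genes with the smallest distance to it (circles), by library, with a dotted line between hypoxia and normoxia. All 6 genes lie above 1 in the hypoxic and below -1 in the normoxic libraries, and distances to DDIT4 run from 0.397 to 0.555.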

How the data were processed

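The authors deposited 1 table of RPKM values for 165956 Ensembl transcripts in 6 columns, matched to samples by their labels; the unit was inferred from the values, whose products with transcript length pile up at whole multiples of a step per library (79.0% to 80.3% of low values of single-transcript genes within 0.1 of a multiple up to 20). Per the submitters' processing notes, Trimmomatic, HISAT2, SAMtools and Partek were used with GRCh38 (hg38); versions, annotation release and strand setting: not given in the sources used here. Per the labels' protocols, libraries were made with the NEBNext Ultra RNA kit, which does not mark strand.

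Transcripts were joined by identifier to GENCODE 29 (140023, 84.4%) and summed over 26425 genes. Unmatched transcripts, 3.43% to 3.67% of the RPKM, were left out. They may include newer transcripts of the members, so member sums may be incomplete. Summing RPKM weights short transcripts more than reads would. Genes above 1 RPKM in 3 libraries or more were tested with limma 3.58.1 (R 4.3.3) on log2(RPKM + 1) with a mean-variance trend, without a block, adjusted by Benjamini-Hochberg over all tested genes. Single values were compared by exact permutation tests (scipy 1.17.1, Python 3.11.15). Estimated reads are RPKM times length times recovered depth, cover counting error only and are not whole reads. Replicates differed by more than counting noise (mean chi-square per gene 6.74 or more). The fit was tested on simulated data.

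The members and lists were chosen with earlier results of these data known. Named genes were all members; per list up to 2 raised and 2 lowered genes with the largest change, and MTOR, RPTOR, HIF1A, ATF4, TBC1D7 and EIF4EBP1; transcripts with the highest mean or at least 10% of a gene; and the 5 genes nearest to DDIT4 without DDIT4-AS1. Some genes that fall under this rule are not reported here. DDIT4-202 and DDIT4-203 were added after their values were seen. Alternatives were scaling by median-of-ratios or by the upper quartile, omitting the filter or raising it to 5 RPKM, adding 0.1 before the logarithm, a block for replicate number, omission of each library in turn, protein-coding transcripts, the highest transcript, limma-voom on estimated reads and, chosen after seeing the data, libraries rescaled to equal sums.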

Additional observations from a re-analysis of the deposited data

How the results depend on the processing

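DDIT4 passed the threshold under all 17 alternatives run for it, at a log2 fold change of 2.95 to 3.13 (adjusted p = 8.76e-15 to 9.02e-04). AKT1S1 lost its call under scaling by median-of-ratios (-0.16) or the upper quartile (-0.17), without a filter (-0.24) and with its highest transcript (-0.24), and ranged from -0.30 to -0.15 with 1 library left out. SESN2 passed with median-of-ratios scaling (0.27). TSC1 passed with equal sums (-0.22) and limma-voom (-0.22), and TSC2 with equal sums (-0.22) and its highest transcript (-0.30). RHEB turned to 0.029 (median-of-ratios) and 0.022 (upper-quartile) and ranged from -0.14 to 0.012 with 1 library left out.

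The number of members raised was 2 with median-of-ratios scaling. Members lowered numbered 0 with either scaling and without a filter, 3 with equal sums, 2 with limma-voom and 0 to 1 with 1 library left out. Of the 7 pathway lists 6 genes were raised without a filter and 7 to 13 with 1 library left out; lowered genes numbered 8 (median-of-ratios) and 7 (upper-quartile), 26 with equal sums, 7 without a filter and 7 to 17 with 1 library left out. Over all genes the lowered were 1422 and 1473 with these scalings, 1367 without a filter and 1523 to 2865 with 1 library left out. The causes were not tested.

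Libraries with the same replicate number did not deviate together (correlations of deviations 0.09, 0.03 and -0.23), and not every library correlated best with its own number, so the numbers were not taken as pairs. With the replicate number as a block 1466 genes were raised and 2663 lowered, with DDIT4 at 3.02 and AKT1S1 at -0.24 (adjusted p = 0.0264), and no member changed its call; of the other named genes, EPAS1 and CAB39 were not called under the block. SESN1, SESN3 and DEPTOR entered limma only without a filter (adjusted p = 0.13, 0.666 and 0.318).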

Other observations

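The transcripts of RPTOR were divided differently in the groups, a comparison chosen after its values were seen. RPTOR-201, the main coding transcript of 6408 bases, was at 10.3, 6.13 and 10.8 RPKM in hypoxia, against 12.7, 12.5 and 11.9 RPKM in normoxia, and held 53.4% of the gene sum in hypoxia and 89.4% in normoxia. RPTOR-202, a second coding transcript, was at 1.74, 2.53 and 1.92 RPKM in hypoxia, against 0.119, 0.178 and 0.200 RPKM in normoxia. RPTOR-209, annotated as a processed transcript without a coding frame, was at 4.35, 7.35 and 4.70 RPKM in hypoxia, against 0.949, 0.962 and 0.715 RPKM in normoxia. The groups did not overlap for any of these 3 transcripts, beside 51.9% of all tested genes by gene sum. The share over all transcripts was not computed. These transcripts share exons, so their values depend on how reads were assigned, which the sources used here do not give, and no test was run on them. MTOR-201 held 95.2% of the MTOR sum in hypoxia and 96.3% in normoxia.

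Around DDIT4 on chromosome 10, genes within 250 kb were tested besides DDIT4-AS1. ANAPC16, a subunit of the anaphase-promoting complex, was raised at 19.1 ± 2.24 in hypoxia against 15.8 ± 0.920 RPKM in normoxia (log2 fold change 0.26, limma adjusted p = 0.0371). ASCC1 was at 4.97 ± 0.672 in hypoxia and 4.15 ± 0.424 RPKM in normoxia and DNAJB12 at 14.6 ± 1.10 in hypoxia and 16 ± 0.632 RPKM in normoxia, neither of which passed the threshold.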
